A study of Mus musculus with 6 samples.

Results

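The laminin chains, nidogens and integrins are the main ligands and receptors by which cells of a developing organ hold on to basement membrane. The 36 genes described here, of 18710 genes tested, were taken by name, each through a probe set that carries its symbol alone. They comprise 12 ligand genes (10 laminin chains and 2 nidogens) and 24 integrin genes (16 alpha and 8 beta subunits). Each was measured by 1 probe set, and all 36 passed a filter on low values, a log2 value of at least 4 on at least 3 of the 6 arrays. Total RNA of mouse embryonic spleens at E13.5, in mid-gestation, had been hybridised to 6 Affymetrix arrays, 3 of Tlx1 homozygous and 3 of Tlx1 heterozygous embryos. Tlx1 encodes a homeobox factor that the spleen needs to develop. Neither the altered allele nor wild-type spleens are named in the labels, so the heterozygous spleens, which are read here as carrying 1 altered copy, are the only baseline. The labels do not say whether a replicate was 1 embryo or a pool. Every array read both Xist, a transcript of female cells, and Y-linked genes, as a mix of both sexes would give. Every p-value rests on the spread between arrays alone, part of which may be technical.

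A laminin is a cross-shaped trimer of 1 alpha, 1 beta and 1 gamma chain, and laminins self-assemble into the sheet that starts a basement membrane. Nidogens bridge that sheet to the collagen IV network. Integrins are transmembrane dimers of 1 alpha and 1 beta subunit that bind matrix or counter-receptors outside and connect to the actin cytoskeleton inside. The alpha subunit largely sets the ligand, and the beta 1 subunit pairs with most alpha subunits. In the spleen such contacts hold the mesenchyme, the vessels and the blood cells that settle there.

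Tlx1 itself had 171, 209 and 200 intensity units in homozygous spleens, against 825, 706 and 719 in heterozygous spleens. Its log2 fold change was −1.95 ± 0.09 (SE), with a limma adjusted p of 1.3e-05. Array medians lay between 106 and 110 units (linear GCRMA intensities), and arrays correlated across probe sets at 0.992 to 0.994 within groups and 0.983 to 0.992 between them. All 11 measured mesenchymal markers were at 171 units or more on every array, and that lowest value is Tlx1 in a homozygous spleen. Of the transcription factors of spleen mesenchyme among them, Nkx2-5 was at 243 ± 52.8 units in homozygous and 614 ± 57.4 in heterozygous spleens (SD, n = 3; log2 fold change −1.36, limma adjusted p = 0.00133). Nkx3-2 was at 236 ± 13.1 units in homozygous and 555 ± 8.19 in heterozygous spleens (−1.23, adjusted p = 2.1e-05), and Tcf21 fell by 0.26 on the log2 scale (adjusted p = 0.0359). The falls of Nkx2-5 and Nkx3-2 were larger than any change among the 36 genes. Fold changes are homozygous minus heterozygous on the scale of log2(intensity + 1), and a gene is called at an adjusted p below 0.05 over all genes tested. Intensities of different probe sets are not compared with each other, since probes differ in how well they bind.

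Ligands and receptors alike had genes that rose and genes that fell. Of the 36 genes 11 rose and 8 fell in homozygous spleens, where 10.4% of all genes tested rose and 6.56% fell, 17.0% together. The counts were 5 higher without homozygous replicate 1 or heterozygous replicate 2, 6 higher without homozygous replicate 3, and 5 higher and 4 lower with the level of Y-linked genes as a covariate. In all 19 called genes the groups did not overlap, and the groups of 7 genes that were not called did not overlap either. These 26 of 36 stand beside 38.3% of all genes tested. Changes were modest, from 0.21 to 0.87 in log2 size with a median of 0.38, against a median of 0.37 over all called genes. Itga8 alone changed at least 1.5-fold. The median log2 fold change of the 36 genes was 0.09, and that of all genes tested was 0.02.

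**Figure D1:**
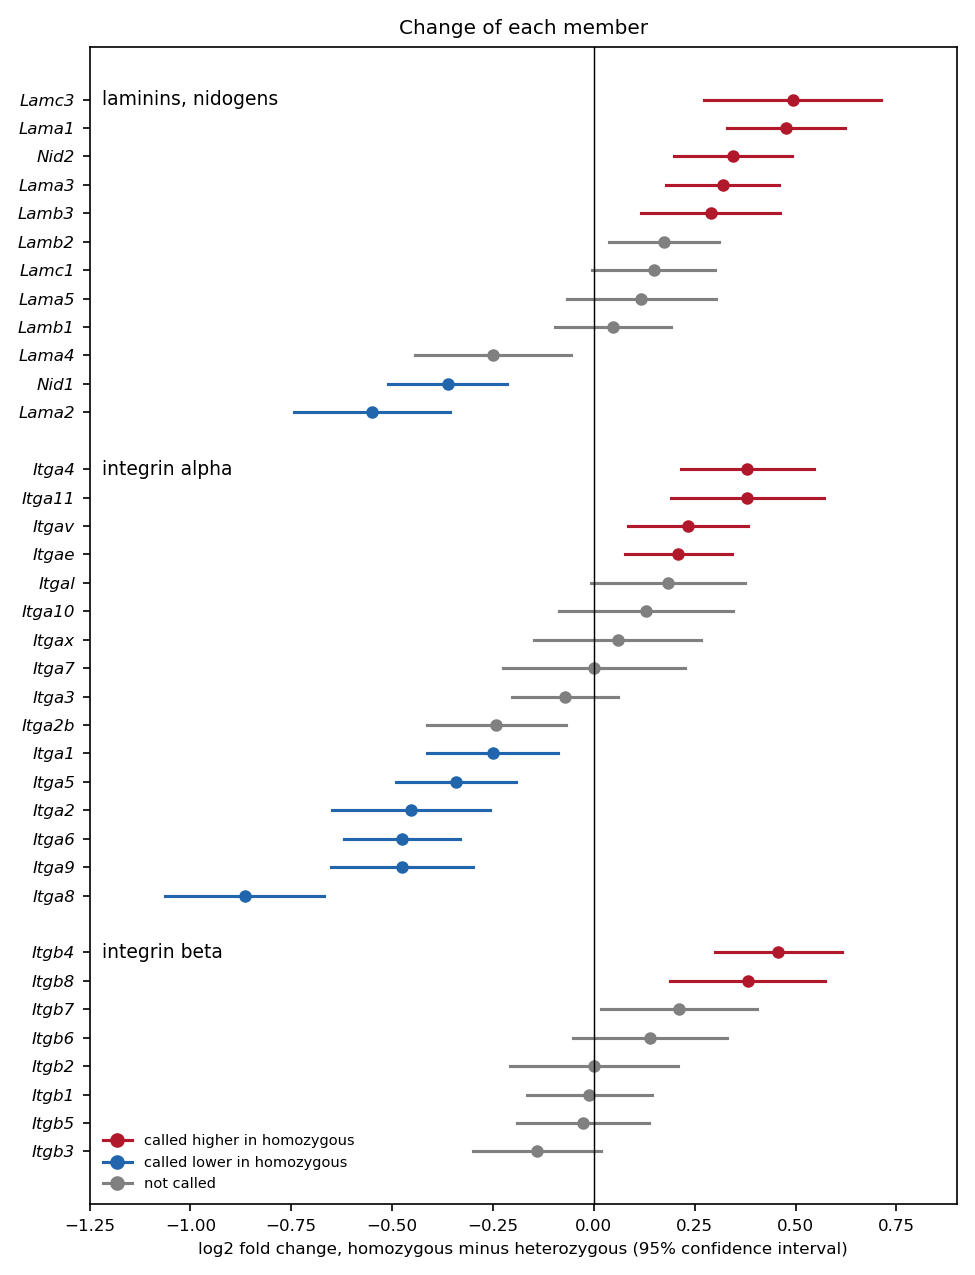
Log2 fold change of each of the 36 genes, homozygous minus heterozygous (x axis), with its 95% confidence interval from limma, grouped into laminins and nidogens, integrin alpha subunits and integrin beta subunits (y axis). Red marks genes called higher in homozygous spleens, blue genes called lower and grey genes not called; Itga8 lies farthest from 0, at −0.87.

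Promoter sequence is shown for 3 of the genes that fell, Itga8, Lama2 and Nid1, and for 1 that rose, Itga4. Each run is the 250 bases before the RefSeq transcription start of build GRCm38.p6, written 5′ to 3′ on the gene's own strand, and capitals mark the matches to the motifs searched.

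Itga8 (chr2:12301945-12302194, minus strand): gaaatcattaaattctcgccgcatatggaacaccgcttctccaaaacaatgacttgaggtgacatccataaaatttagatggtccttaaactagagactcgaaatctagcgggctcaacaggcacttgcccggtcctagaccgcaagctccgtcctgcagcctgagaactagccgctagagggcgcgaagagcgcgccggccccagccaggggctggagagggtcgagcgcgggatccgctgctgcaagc

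Lama2 (chr10:27616943-27617192, minus strand): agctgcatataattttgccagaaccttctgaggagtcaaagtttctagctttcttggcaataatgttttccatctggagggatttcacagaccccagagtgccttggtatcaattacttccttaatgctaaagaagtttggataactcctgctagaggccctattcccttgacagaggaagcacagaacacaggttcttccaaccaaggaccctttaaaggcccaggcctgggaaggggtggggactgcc

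Nid1 (chr13:13437352-13437601, plus strand): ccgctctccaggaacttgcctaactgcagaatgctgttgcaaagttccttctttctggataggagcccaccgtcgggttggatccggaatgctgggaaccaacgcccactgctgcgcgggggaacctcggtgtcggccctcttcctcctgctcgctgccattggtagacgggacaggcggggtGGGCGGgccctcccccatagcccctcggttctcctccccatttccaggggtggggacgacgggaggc

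Itga4 (chr2:79255176-79255425, plus strand): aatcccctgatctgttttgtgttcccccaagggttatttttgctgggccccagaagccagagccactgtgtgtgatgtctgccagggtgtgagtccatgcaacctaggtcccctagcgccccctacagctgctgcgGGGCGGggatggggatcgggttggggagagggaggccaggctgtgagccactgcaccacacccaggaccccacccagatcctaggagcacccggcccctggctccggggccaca

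Such windows were available here for 23 of the 36 genes, 26 in all, and 5 short motifs were searched in them on both strands. A gene without a window here does not thereby lack a RefSeq start. Matches to different motifs did not overlap. The GC box GGGCGG, a binding motif of SP1 family factors, was in 9 of the 26 windows and in 32.7% of all 32851 windows of the same length. Among the sequences printed, it lies 67 bases before the start of Nid1 and 114 bases before that of Itga4. The joint PBX and HOX motif TGATTNAT was in the Itga9 window alone, 220 bases before a start that lies inside the annotated gene, and in 2.82% of all windows. None of the 26 windows held the TATA box TATAAA (12.4% of all windows), the homeodomain core TAATTA (4.84%) or the nuclear receptor half-site AGGTCA (14.0%). These are matches of letters and do not show binding, and a window without a match says nothing of the factor.

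Among the ligands, Lama1, Lama3, Lamb3, Lamc3 and Nid2 rose, while Lama2 and Nid1 fell. That is 5 higher and 2 lower of 12 genes, beside 10.4% and 6.56% of all genes, with a median log2 fold change of 0.16. Without homozygous replicate 1 or heterozygous replicate 2 the count of rises was 3, and with the Y-linked covariate 3 rose and 1 fell.

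Lama1, an alpha chain of early embryonic and epithelial basement membranes, had 370, 387 and 371 units in homozygous spleens, against 255, 281 and 275 in heterozygous spleens. Every homozygous array lay above every heterozygous array. The log2 fold change was 0.48 ± 0.06 (SE), a 1.39-fold rise, with a limma adjusted p of 0.00292. Lama2, the alpha chain best known from muscle and peripheral nerve, moved the other way. It had 100, 117 and 120 units in homozygous spleens, against 172, 167 and 154 in heterozygous spleens, and again the groups did not overlap. Its log2 fold change of −0.55 ± 0.08 (adjusted p = 0.0053, limma) was the deepest fall among the ligands. Both genes kept their calls under all 11 other processing settings and in all 6 refits without 1 array.

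Lama3 and Lamb3 encode the alpha and beta chains of the laminin that anchors stratified epithelia. Both were dim here, at 66.9 ± 2.07 and 76.2 ± 6.08 units in homozygous spleens, against 53.4 ± 1.91 and 62.1 ± 2.84 in heterozygous spleens (SD, n = 3). The limma adjusted p was 0.0122 for Lama3 (log2 fold change 0.32 ± 0.06) and 0.0338 for Lamb3 (0.29 ± 0.08). Neither call was firm. After cyclic loess the adjusted p was 0.0672 for Lama3 and 0.101 for Lamb3, and without heterozygous replicate 2 it was 0.0536 and 0.109. The call of Lamb3 was also lost without homozygous replicate 1 (adjusted p = 0.111) or 3 (0.0774) and without heterozygous replicate 1 (0.0984). With the Y-linked covariate its adjusted p was 0.072.

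Lamc3, a gamma chain that can take the place of the common gamma 1 chain, had 149, 150 and 149 units in homozygous spleens, against 101, 95.1 and 124 in heterozygous spleens. The homozygous arrays were nearly alike, and the spread came from heterozygous replicate 3. Its log2 fold change was 0.49 ± 0.10 with a limma adjusted p of 0.0129, which became 0.0507 without homozygous replicate 1 at an estimate of 0.49.

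The chains found in most laminins did not pass. Lamb1, the common beta chain, was at 1388 ± 60.2 units in homozygous and 1343 ± 39.2 in heterozygous spleens (SD, n = 3), and the 95% interval of its log2 fold change ran from −0.10 to 0.19. Lamc1, the common gamma chain, had an interval from −0.004 to 0.30 (limma adjusted p = 0.157), with groups that did not overlap. Lama5, the alpha chain of many epithelia and vessels, was at 0.12 ± 0.08 (adjusted p = 0.341), with homozygous replicate 3 (498 units) above the other arrays (395 to 428). Lamb2, the beta chain of kidney filter and nerve-muscle junction, and Lama4, the alpha chain of vessel walls, lay near the threshold. Lamb2 had 681 ± 14.8 units in homozygous and 604 ± 19.7 in heterozygous spleens (adjusted p = 0.0792), and passed after quantile normalization (0.0392), cyclic loess (0.0403) and with a variance trend and robust fit (0.0428). Lama4 had 576 ± 53.3 units in homozygous and 684 ± 44.0 in heterozygous spleens (adjusted p = 0.0758). It passed with a variance trend and robust fit (0.0343), without homozygous replicate 2 (0.0475) and after median centring (0.0499).

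The nidogens, which share the role of linking laminin to collagen IV, changed in opposite directions. Nid1 had 876, 923 and 979 units in homozygous spleens, against 1188, 1163 and 1215 in heterozygous spleens, which is −0.36 ± 0.06 on the log2 scale (adjusted p = 0.00954, limma). Nid2 had 1398, 1515 and 1527 units in homozygous spleens, against 1199, 1133 and 1163 in heterozygous spleens, which is 0.34 ± 0.06 on the log2 scale (adjusted p = 0.0108). No array of either group crossed into the other for either gene. With the Y-linked covariate the adjusted p was 0.0592 for Nid1 and 0.05002 for Nid2.

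**Figure D2:**
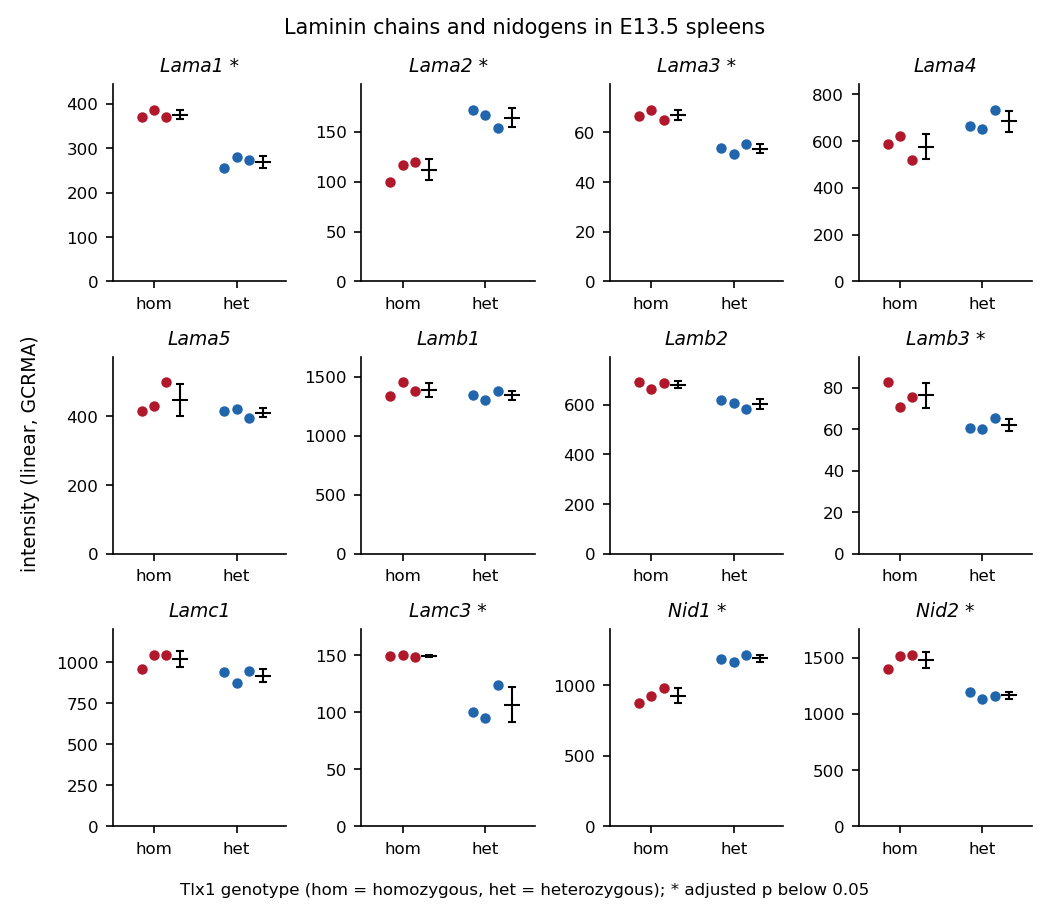
Intensity (linear GCRMA units, y axis from 0 in each panel) of the 12 laminin and nidogen genes on each array, homozygous left and heterozygous right, with the mean and SD of 3 arrays beside the points. An asterisk marks an adjusted p below 0.05; Lama1 and Nid2 lie higher and Lama2 and Nid1 lower on every homozygous array.

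Calls among the integrins fell mostly on alpha subunits. Of 16 alpha subunits 4 rose and 6 fell (62.5% called), and of 8 beta subunits 2 rose (25%), beside 17.0% of all genes called. With only 8 beta subunits, their share is not read as different from that of all genes. None of the 8 fell in limma, also at an unadjusted p below 0.05. For all 24 integrins that is 6 higher and 6 lower, beside 10.4% and 6.56% of all genes, with a median log2 fold change of 0.00. The 6 rises became 2 without homozygous replicate 1, homozygous replicate 3 or heterozygous replicate 2, and 3 without heterozygous replicate 3. With the Y-linked covariate 2 rose and 3 fell.

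Of the receptors that recognise RGD sequences in matrix proteins, Itga8 showed the largest change of all 36 genes. It pairs with beta 1, binds nephronectin and is known for its role in kidney outgrowth. Itga8 had 1334, 1407 and 1164 units in homozygous spleens, against 2277, 2278 and 2551 in heterozygous spleens. The brightest homozygous array was far below the dimmest heterozygous array. The log2 fold change was −0.87 ± 0.09, a 1.82-fold fall, with a limma adjusted p of 0.000763, and it stayed between −0.92 and −0.79 under every setting tried and without any 1 array. Npnt, which encodes nephronectin and was singled out after its values were seen, had 668, 682 and 690 units in homozygous spleens, against 818, 831 and 803 in heterozygous spleens. It thus lay lower on every homozygous array as well, with a change of −0.26 ± 0.06 on the log2 scale (adjusted p = 0.0181). The adjusted p of Npnt was above 0.05 without homozygous replicate 1, heterozygous replicate 1 or heterozygous replicate 2 and in the fit on the Y-linked level, at most 0.0733. Its estimates were −0.28 to −0.25 over the 6 refits.

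Itga5, the fibronectin receptor subunit, had 364, 390 and 376 units in homozygous spleens, against 504, 454 and 477 in heterozygous spleens. All homozygous arrays were lower, with a log2 fold change of −0.34 ± 0.07 (adjusted p = 0.0121, limma). Its adjusted p was 0.0525 if homozygous replicate 1 was left out, and 0.0845 under the Y-linked covariate. Itgav, which pairs with beta 1, 3, 5, 6 or 8 and binds vitronectin, fibronectin and latent TGF-beta, was higher. It had 664, 728 and 665 units in homozygous spleens, against 591, 562 and 596 in heterozygous spleens. Although the groups did not overlap, its adjusted p of 0.0437 (log2 fold change 0.23 ± 0.07) lay close to the threshold. It was above 0.05 in each of the 6 refits without 1 array, at 0.0655 to 0.146 with estimates of 0.19 to 0.26, and also after median centring (0.0622), with the replicate block (0.0774) and with the Y-linked covariate (0.104).

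Among laminin receptors, Itga6, which pairs with beta 1 or with beta 4, fell. Its intensities were 411, 434 and 401 units in homozygous spleens, against 600, 571 and 563 in heterozygous spleens. The groups were far apart, and the log2 fold change was −0.48 ± 0.06 (adjusted p = 0.00276, limma). Itga6 kept its call under every setting and in every refit. Itga3, a laminin receptor subunit of epithelia, was at 329 ± 7.67 units in homozygous and 346 ± 5.46 in heterozygous spleens (SD, n = 3), with an interval of −0.20 to 0.06 for its log2 fold change. Itga7, the laminin receptor subunit of muscle, was at 80.2 ± 10.3 units in homozygous and 79.9 ± 5.88 in heterozygous spleens, with an interval of −0.22 to 0.23. The estimates of Itga3 and Itga7 turned sign under some settings.

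The collagen receptor subunits Itga1, Itga2, Itga10 and Itga11, which all pair with beta 1, did not move as a class. Itga2 had 173, 189 and 211 units in homozygous spleens, against 275, 243 and 265 in heterozygous spleens, which is −0.45 ± 0.09 on the log2 scale (adjusted p = 0.0116, limma). Itga1 had 196, 222 and 204 units in homozygous spleens, against 239, 242 and 260 in heterozygous spleens, a log2 fold change of −0.25 ± 0.07. Both were lower on every homozygous array, and they are next to each other on chromosome 13 with no protein-coding gene between them in the RefSeq order. The adjusted p of Itga1 was 0.0442 and rose above 0.05 in every refit but that without homozygous replicate 2 (0.0832 to 0.143, estimates −0.30 to −0.21 over all 6 refits). It was 0.0996 after quantile normalization, 0.0642 after cyclic loess, 0.0605 with the replicate block and 0.203 with the Y-linked covariate. Itga2 lost its call with the Y-linked covariate alone (0.0733).

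Itga11, a collagen receptor subunit of fibroblasts, had 105, 105 and 108 units in homozygous spleens, against 89.5, 72.2 and 82.7 in heterozygous spleens. It was higher on every homozygous array, opposite to Itga1 and Itga2, with a log2 fold change of 0.38 ± 0.08 (adjusted p = 0.019, limma). The adjusted p was 0.0628 without homozygous replicate 1, 0.0597 without homozygous replicate 3 and 0.0556 without heterozygous replicate 2. Itga10, the collagen receptor subunit of cartilage, was at 111 ± 8.01 units in homozygous and 101 ± 11.7 in heterozygous spleens (SD, n = 3), and the groups overlapped (adjusted p = 0.37).

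Itga4 and Itga9 form a small subfamily, and both bind VCAM1 on other cells. They changed in opposite directions. Itga9 had 416, 492 and 469 units in homozygous spleens, against 612, 655 and 646 in heterozygous spleens, which is −0.48 ± 0.08 on the log2 scale (adjusted p = 0.00632, limma). Itga4, the subunit by which blood progenitors and lymphocytes adhere, had 195, 180 and 183 units in homozygous spleens, against 150, 147 and 132 in heterozygous spleens. Its log2 fold change was 0.38 ± 0.07 (adjusted p = 0.0114). The groups were apart for both genes. Itga9 kept its call in every refit and setting, whereas the adjusted p of Itga4 was 0.0507 if homozygous replicate 1 was left out, and 0.0765 under the Y-linked covariate.

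Of the alpha subunits Itga2b, Itgae, Itgal and Itgax, found mainly on platelets and white cells, Itgae was called. Itga2b, the platelet subunit that binds fibrinogen with beta 3, was at 125 ± 11.1 units in homozygous and 148 ± 2.86 in heterozygous spleens (SD, n = 3). Its log2 fold change was −0.24 ± 0.08 with a limma adjusted p of 0.0589, and it passed under 5 other settings (lowest adjusted p 0.03, with array weights) and without homozygous replicate 3 (0.0434). Itgae, the subunit that pairs with beta 7 and binds E-cadherin, was dim and had a small rise. It had 40.6, 38.9 and 39.4 units in homozygous spleens, against 35.2, 33.4 and 33.9 in heterozygous spleens, and an adjusted p of 0.0431 (0.21 ± 0.06). That call was lost in all 6 refits (0.0537 to 0.145, estimates 0.19 to 0.23) and under 7 of the 10 other settings that kept the gene, among them cyclic loess (0.11, adjusted p = 0.265). Itgal (adjusted p = 0.16) and Itgax (0.688), the subunits of lymphocytes and of dendritic and myeloid cells, did not pass, and their groups overlapped.

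**Figure D3:**
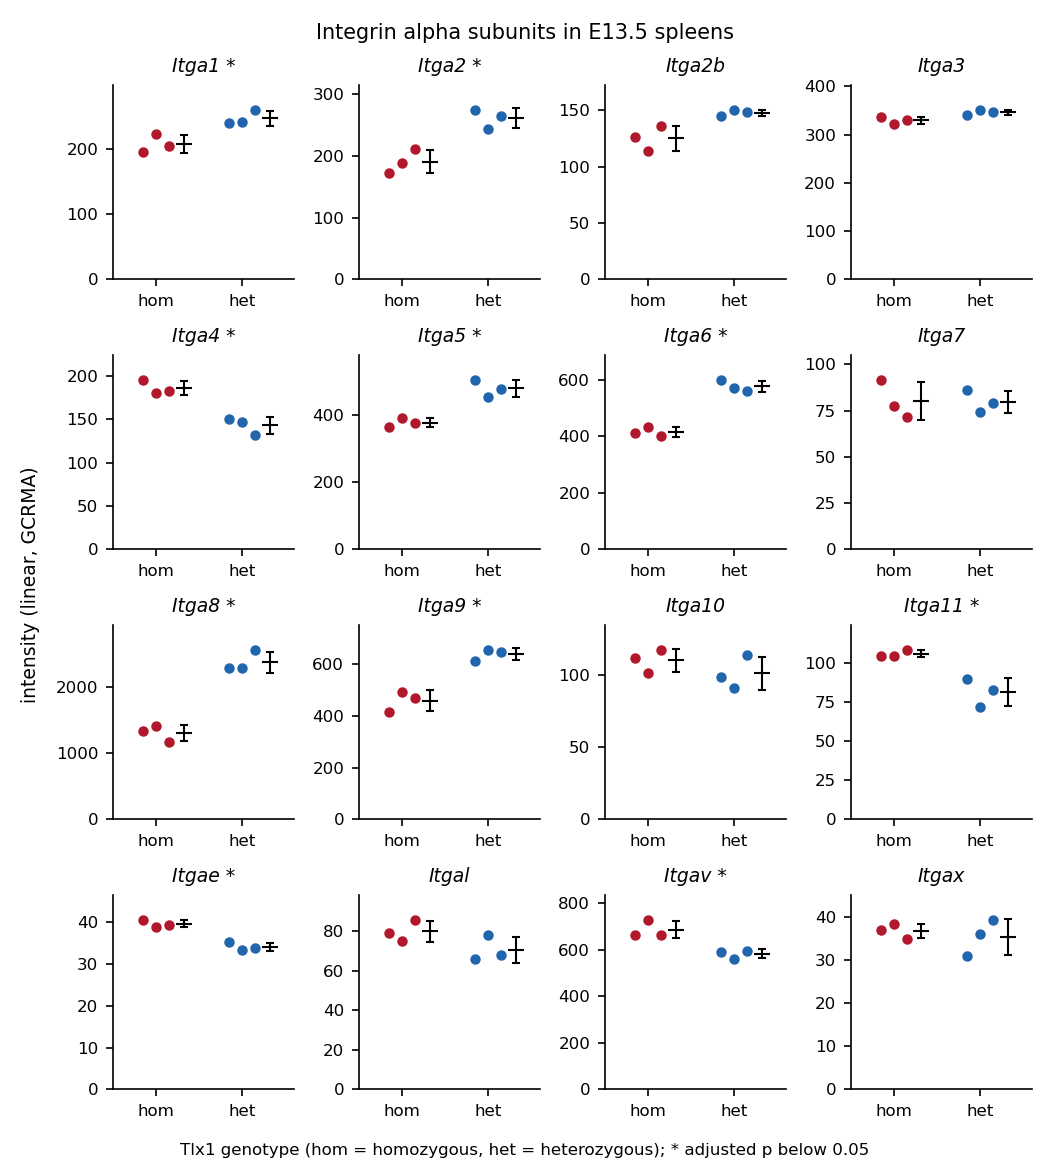
Intensity (linear GCRMA units, y axis from 0 in each panel) of the 16 integrin alpha subunit genes on each array, homozygous left and heterozygous right, with the mean and SD of 3 arrays beside the points. An asterisk marks an adjusted p below 0.05; Itga8, Itga9 and Itga6 lie lower and Itga4 higher on every homozygous array.

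Itgb1, the shared partner of the collagen, laminin and some RGD receptors, had 2688, 2829 and 2482 units in homozygous spleens, against 2710, 2624 and 2719 in heterozygous spleens. The groups overlapped fully, and the 95% interval of its log2 fold change, −0.17 to 0.14, leaves out falls as deep as those of Itga8, Itga9 and Itga6. Itgb5, a partner of alpha v, was as even, at 1135 ± 61.9 units in homozygous and 1157 ± 68.3 in heterozygous spleens (SD, n = 3; interval −0.19 to 0.14). The estimates of Itgb1, Itgb5 and the white cell subunit Itgb2 turned sign under some settings. Itgb2 was at 71.6 ± 6.99 units in homozygous and 71.5 ± 6.18 in heterozygous spleens, with an interval of −0.21 to 0.21.

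Itgb4, the epithelial partner of alpha 6 in hemidesmosomes, was the beta subunit with the largest change. It had 128, 116 and 133 units in homozygous spleens, against 89.9, 89.8 and 93.2 in heterozygous spleens. All homozygous arrays were higher, the log2 fold change was 0.46 ± 0.07 (adjusted p = 0.00475, limma), and the call was kept in every refit and setting. Its partner Itga6 fell in the same spleens. Itgb8, which with alpha v activates latent TGF-beta, had 125, 155 and 138 units in homozygous spleens, against 110, 108 and 101 in heterozygous spleens, which is 0.38 ± 0.08 on the log2 scale (adjusted p = 0.0198). Its adjusted p was 0.0555 without homozygous replicate 3, 0.0532 and 0.0517 without heterozygous replicate 2 and 3, and 0.114 under the Y-linked covariate.

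Itgb6, the other beta subunit known to activate latent TGF-beta, stood just above the filter floor of 15 units, at 23.2, 18.7 and 22.0 units in homozygous spleens, against 19.8, 19.0 and 18.6 in heterozygous spleens. The groups overlapped (adjusted p = 0.276). Itgb3, the partner of the platelet alpha IIb and of alpha v, was at 188 ± 8.39 units in homozygous and 208 ± 12.4 in heterozygous spleens (SD, n = 3; adjusted p = 0.187), with groups that did not overlap. Itgb7, the lymphocyte partner of alpha 4 and alpha E, was at 98.1 ± 1.74 units in homozygous and 85.0 ± 9.37 in heterozygous spleens (adjusted p = 0.121).

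**Figure D4:**
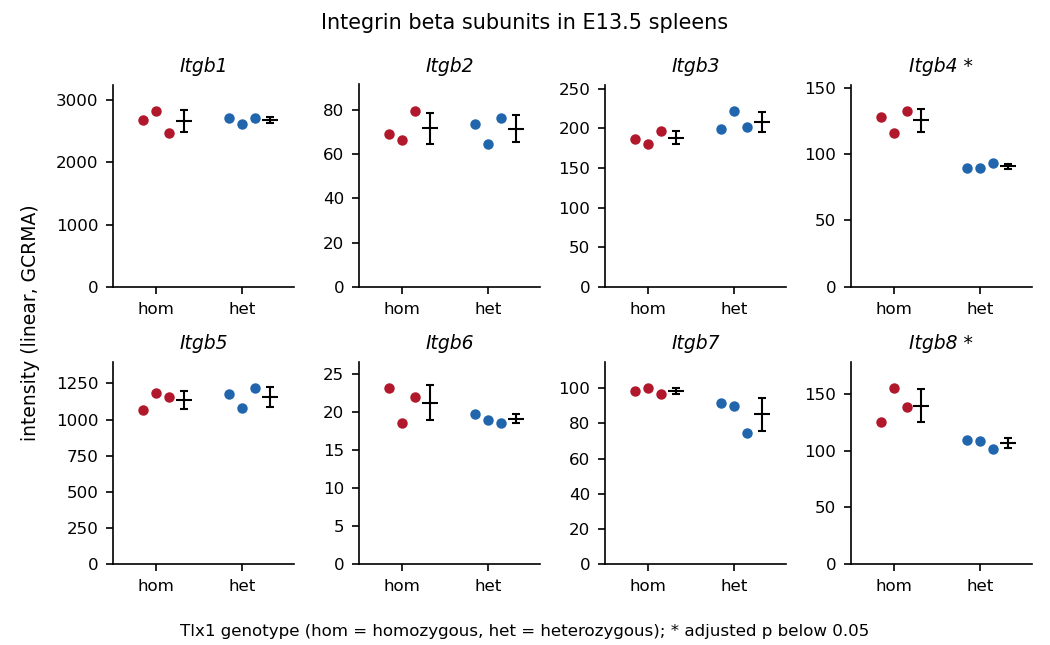
Intensity (linear GCRMA units, y axis from 0 in each panel) of the 8 integrin beta subunit genes on each array, homozygous left and heterozygous right, with the mean and SD of 3 arrays beside the points. An asterisk marks an adjusted p below 0.05; Itgb4 and Itgb8 lie higher on every homozygous array and Itgb1 overlaps between the groups.

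For 4 pairs of related genes that moved apart, picked after their values were seen, the log2 ratio was taken within each array. The difference between homozygous and heterozygous spleens in this log2 ratio was 0.71 for Nid2 over Nid1, 1.03 for Lama1 over Lama2, 0.86 for Itga4 over Itga9 and 1.10 for Itgav over Itga8. These are descriptions with no test, since choosing pairs that moved apart fixes the direction and the separation of the groups.

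Other basement membrane genes were split as well. Of 21 measured partners 4 rose and 5 fell, beside 10.4% and 6.56% of all genes, with a median log2 fold change of 0.00. Smoc2, a matricellular calcium-binding protein, had 1982, 2015 and 2184 units in homozygous spleens, against 1376, 1313 and 1403 in heterozygous spleens (log2 fold change 0.59 ± 0.07, adjusted p = 0.00123, limma). Tinagl1, a secreted basement membrane protein, had 254, 269 and 264 units in homozygous spleens, against 347, 364 and 367 in heterozygous spleens (−0.45 ± 0.06, adjusted p = 0.0029). In both the groups were clearly apart. Col15a1, a collagen of vascular and muscle basement membranes, fell by 0.41 on the log2 scale (adjusted p = 0.0119), and Ntn4, a netrin that binds laminin gamma chains, rose by 0.41 (adjusted p = 0.0188). Under the Y-linked covariate these were 0.0876 for Col15a1 and 0.0765 for Ntn4, and Ntn4 was at 0.0627 without heterozygous replicate 2. The counts were 2 higher without heterozygous replicate 1 and 1 higher without heterozygous replicate 2, and 2 lower without homozygous replicate 1 or heterozygous replicate 1 and 3 lower without heterozygous replicate 2.

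Integrin ligands outside the basement membrane included the vascular addressins. Of 16 measured genes 3 rose and 2 fell, beside 10.4% and 6.56% of all genes, with a median log2 fold change of 0.10. Vcam1, the counter-receptor of the alpha 4 and alpha 9 integrins, had 440, 498 and 387 units in homozygous spleens, against 249, 271 and 279 in heterozygous spleens (log2 fold change 0.72 ± 0.10, adjusted p = 0.00285, limma). Madcam1, which alpha 4 beta 7 binds, had 300.2, 292 and 392 units in homozygous spleens, against 619, 579 and 511 in heterozygous spleens (−0.80 ± 0.12, adjusted p = 0.00466). These adhesion ligands differed in direction, and the groups were apart in both. Fn1, the fibronectin gene, was at 1300 ± 46.1 units in homozygous and 941 ± 63.3 in heterozygous spleens (SD, n = 3; adjusted p = 0.00467), while its receptor subunit Itga5 fell. Icam2, an endothelial ligand of the beta 2 integrins, was at 178 ± 13.6 units in homozygous and 253 ± 20.4 in heterozygous spleens (adjusted p = 0.00682). All 4 kept their calls in every refit and setting. The list's count of rises was 2 without homozygous replicate 2 or 3 or heterozygous replicate 2, and 5 under 4 other settings.

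Of 28 measured genes of the adhesion machinery inside the cell 1 rose and 4 fell, with a median log2 fold change of −0.06. Together that is 17.9% of the list, close to the 17.0% called among all genes. Tln2, one of the talins that switch integrins on, rose by 0.47 ± 0.07 on the log2 scale, at 284 ± 17.5 units in homozygous and 204 ± 5.97 in heterozygous spleens (SD, n = 3; adjusted p = 0.00386, limma). Tns3, a tensin that ties integrins to actin, was at 1499 ± 78.6 units in homozygous and 2093 ± 41.2 in heterozygous spleens (adjusted p = 0.00276). Lims1, an adaptor that binds integrin-linked kinase, was at 768 ± 35.4 units in homozygous and 1056 ± 45.5 in heterozygous spleens (adjusted p = 0.00386). Fermt2, a kindlin that helps talin, fell by 0.28 on the log2 scale (adjusted p = 0.0245), a call lost in every refit but that without homozygous replicate 2 (0.0589 to 0.0884) and with the Y-linked covariate (0.113). Falls numbered 2 without any 1 array but homozygous replicate 2, and 2 rose without homozygous replicate 2.

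Markers of several cell types moved in the same spleens, and their part in the changes above was not tested. Over all genes tested 10.4% rose and 6.56% fell, which is the share to read the marker counts against. In such whole-organ RNA fewer cells of a type and less RNA per cell cannot be told apart. Whether the samples also held tissue of other organs, such as pancreas, was not tested. Beside the falls of Itga5, Itga6 and Itga9, 12 of 14 endothelial markers fell and none rose, with summed intensities of 7275 to 7821 in homozygous spleens, against 10050 to 10327 in heterozygous spleens. Lama4 and Lama5, described above as chains of vessels, were not called, with log2 fold changes of −0.25 and 0.12. Beside Itga2b and Itgb3, which were not called, 3 of 6 megakaryocyte and platelet markers fell. The sums of these markers were 686 to 896 in homozygous spleens, against 1105 to 1370 in heterozygous spleens. Without Ppbp, the brightest of them, the sums were 580 to 641 in homozygous spleens, against 647 to 745 in heterozygous spleens. Red cell markers were lower too, 5 of 8, with sums of 1865 to 2108 in homozygous spleens, against 2831 to 3215 in heterozygous spleens. Beside the rises of Lama1, Lama3, Lamb3 and Itgb4, 4 of 11 epithelial markers rose and none fell, with sums of 3823 to 4197 in homozygous spleens, against 2913 to 3666 in heterozygous spleens. Lama5 and Itga3, also described above as epithelial, were not called, and Itga6, the partner of Itgb4, fell. Exocrine pancreas markers were higher in 3 of 7, with sums of 2067 to 2334 in homozygous spleens, against 647 to 1282 in heterozygous spleens. Most of that sum was Cpa1, a carboxypeptidase, and the other 6 summed to 457 to 551 in homozygous spleens, against 340.01 to 422 in heterozygous spleens. Nerve and glia markers rose in 4 of 9, with sums of 1626 to 1721 in homozygous spleens, against 1212 to 1284 in heterozygous spleens.

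White cell markers stand beside the white cell integrins. None of 12 macrophage and myeloid markers was called in limma (3 at an unadjusted p below 0.05), with sums of 3527 to 3910 in homozygous spleens, against 3483 to 3573 in heterozygous spleens. Lymphoid markers numbered 2 higher and 1 lower of 8, with sums of 447 to 466 in homozygous spleens, against 422 to 448 in heterozygous spleens. Beside Lama2 and Itga8, mesenchymal markers, Tlx1 included, were 2 higher and 5 lower of 11, smooth muscle markers 2 higher and 0 lower of 9, and mesothelial markers 1 higher and 1 lower of 8, the last 2 lists at 22.2% and 25.0% called. Summed mesenchymal intensities, to which bright collagen genes gave the most, overlapped at 21474 to 23230 in homozygous spleens, against 21276 to 22260 in heterozygous spleens. Within that list Col1a1 and Dcn rose, while Tlx1, Nkx2-5, Nkx3-2, Tcf21 and Pdgfrb fell. Only markers that passed the filter on low values were counted. The lowest intensity in any of these lists, 17.1, therefore follows in part from that filter. The Y-linked gene Eif2s3y was at 391 to 417 on the homozygous arrays and at 600, 398 and 735 on the heterozygous arrays, and the mean level of it, Kdm5d and Uty was the covariate named above. Xist was at 1478, 1857 and 1547 on the homozygous arrays and at 901, 1826 and 812 on the heterozygous arrays. It was lowest where Eif2s3y was highest, on heterozygous replicates 1 and 3. Krt19 is on both the epithelial and the mesothelial list, and Cdh1 is on both the epithelial list and that of other ligands.

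**Figure D5:**
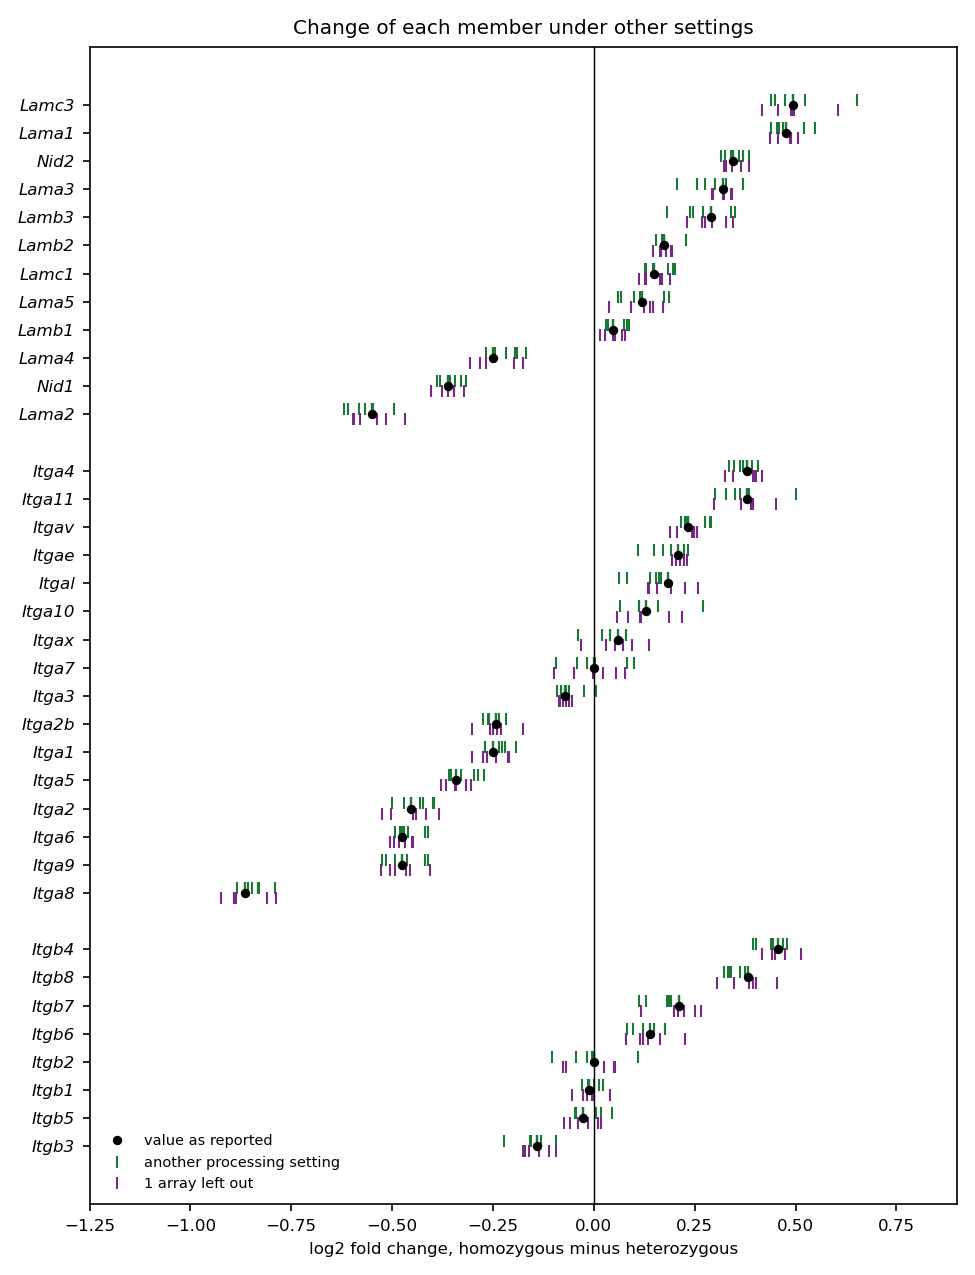
Log2 fold change of each of the 36 genes, homozygous minus heterozygous (x axis), as reported (black points), under the other processing settings (green ticks) and in the 6 refits without 1 array (purple ticks), by gene (y axis). Itga8 stays between −0.92 and −0.79, and no called gene crosses 0.

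Across the 19 called genes none turned sign under any of the 11 other settings or 6 refits. Lama1, Lama2, Itga6, Itga8, Itga9 and Itgb4, 6 of the 19, kept their calls under all of them, as the plot of changes under other settings shows.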

How the data were processed

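The deposited values are 1 intensity per probe set and array, made by the authors with GCRMA per the submitters' processing notes, which corrects background by probe sequence, normalizes between arrays and summarises probes. They are on a linear scale, from 2.75 to 23785. No source used here gives the GCRMA version, the probe set definition or the genome build. Of 35512 probe sets the platform's annotation gave 1 symbol to 21789, several to 1621 and none to 12102, and only the first kind was used. Values were taken as log2(intensity + 1) and filtered at a log2 value of 4 on at least 3 of 6 arrays, and the probe set with the highest mean stood for a gene, which left 18710 genes.

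Groups were compared with limma 3.58.1 in R 4.3.3 (lmFit, eBayes, no trend, not robust), two-sided, with Benjamini-Hochberg adjustment over all genes tested. The steps were tested on simulated data. Known changes of 0.25 on the log2 scale were recovered in 2% of cases, of 0.5 in 74% and of 1 in 98%. A gene that was not called may therefore still have changed by a small size. Every one of the 36 genes is named. From each list of partner genes up to 4 called genes with the largest change are named, and Npnt was added after its values were seen. The genes and lists were chosen with earlier results of these data known. Ptk2, Spp1 and Fbn1 were listed and are not analysed here, and Icap1 is an older name of Itgb1bp1, which was measured once. The number of arrays limits the precision. Promoter windows and gene order are RefSeq's for GRCm38.p6, and the array's own coordinates were not used. Alternatives were 2 other filters, a pseudocount of 16, the mean of all probe sets, quantile normalization, median centring, cyclic loess, a variance trend with a robust fit, array weights, a replicate block, a covariate of 3 Y-linked genes (Eif2s3y, Kdm5d, Uty), and leaving out each array.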

Additional observations from a re-analysis of the deposited data

How the results depend on the processing

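Of 609 values of the 36 genes under another setting or without 1 array, 519 kept direction and call, 54 lost the call, 12 gained it and 24 turned sign, all 24 in genes that were not called. These were Itga3 after quantile normalization (0.0047), Itga7 after quantile normalization (−0.0407), median centring (−0.0173) and cyclic loess (−0.095; −0.0981 to 0.078 without 1 array), Itgax after cyclic loess (−0.0389; −0.0329 to 0.136), Itgb1 after cyclic loess (0.0115), with array weights (0.0012) and with the Y-linked covariate (0.0221; −0.0552 to 0.0392), Itgb2 after quantile normalization (−0.0454), median centring (−0.0172), cyclic loess (−0.104) and with array weights (−0.0058; −0.0759 to 0.0532), and Itgb5 after quantile normalization (0.004), cyclic loess (0.0165) and with the covariate (0.0459; −0.0748 to 0.0173). With the Y-linked covariate 1140 genes rose and 507 fell, of laminins and nidogens 3 and 1, of integrins 2 and 3, and of basement membrane partners 1 and 1, while 2 machinery genes fell. This fit spends a degree of freedom on the covariate, whose level was higher on heterozygous replicates 1 and 3 than on any homozygous array. The cause of the lower counts was not tested. Without 1 array 699 to 2319 genes rose and 499 to 1244 fell. Laminins and nidogens ranged from 3 to 5 higher and 2 to 3 lower, integrins from 2 to 4 and 4 to 6, basement membrane partners from 1 to 3 and 2 to 4, other ligands from 2 to 4 higher and machinery genes from 1 to 2 and 2 to 4. Fewer samples enter these fits, but the counts also depended on the array left out. Without homozygous replicate 2, 2319 genes rose and 1244 fell, and without homozygous replicate 1, 699 rose and 499 fell. The cause was not tested. Other ligands rose in 5 cases at the stricter filter, with a pseudocount of 16, after median centring and with the replicate block, 3 partners fell after quantile normalization, and 2 machinery genes rose with the mean of probe sets and with the replicate block. Same-numbered arrays deviated from their group means with correlations of −0.01, 0.04 and −0.11 across genes. These values gave no sign that the numbers pair the samples, but deviations from means of 3 arrays cannot exclude it. With the replicate block 2091 genes rose and 1072 fell, and integrins numbered 4 higher and 5 lower. The median change of all genes stayed between 0.00 and 0.04 under each scaling.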
